A study of Mus musculus with 6 samples.

Results

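The Notch receptors Notch1 to Notch4, the Delta ligands Dll1, Dll3 and Dll4, the Jagged ligands Jag1 and Jag2, and the glycosyltransferase Lfng were examined in mouse cells before and after differentiation toward skeletal muscle. These 10 genes were taken by exact gene symbol from the platform annotation, which gave 11 of the 41345 probe sets on the array, and they are 10 of the 22180 genes tested. The Pax7-GFP group was made of cells derived from mouse embryonic stem (ES) cells, kept for 3 weeks in a myogenic differentiation protocol and purified by fluorescence-activated sorting for a green fluorescent reporter of Pax7, a transcription factor that marks satellite cells and their progenitors. The ES group was made of undifferentiated, pluripotent mouse ES cells. Each group had 3 samples on 1 array each, and the titles call them biological replicates. The design of the reporter, the number of clones, and whether the ES cells carried the reporter or passed through the sorter are not stated in the labels. Because each array measured many cells together, a difference in the number of expressing cells and a difference in RNA per cell cannot be told apart.

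Notch receptors sit in the membrane and are activated by Delta or Jagged proteins on a neighbouring cell. A pulled receptor is cut by the protease Adam10 and then by gamma-secretase, and the freed intracellular part enters the nucleus, binds Rbpj with a Mastermind co-activator and turns on genes such as those of the Hes and Hey repressors. In mouse muscle this signal keeps progenitors and satellite cells undifferentiated. Lfng adds a sugar to the receptors inside the secretory pathway, which favours the response to Delta over Jagged ligands.

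The labels were checked first. Pax7 had a log2 signal of 10.90 ± 0.25 in Pax7-GFP cells, against 5.70 ± 0.073 in ES cells, and the pluripotency factor Nanog had 5.13 ± 0.15 in Pax7-GFP cells, against 12.02 ± 0.072 in ES cells (SD, n = 3 each). All 10 measured genes of the pluripotency marker list were lower in Pax7-GFP cells, and 12 of 17 measured genes of the myogenic and satellite cell list were higher. The higher genes included Myog and Myf6, and the remaining 5 were Pax3, Vcam1, Sdc4, Calcr and Chrdl2. The array medians lay between 5.61 and 5.69 on the log2 scale, and 0 pairs of arrays were identical. All values below are log2 RMA signals, where 1 unit is a 2-fold difference. Signals of different probe sets are not comparable with each other, so each gene is compared only with itself between groups. A gene was called when its adjusted p was under 0.05 (limma, Benjamini-Hochberg over all 22180 genes) and its fold change was at least 2.

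The receptors Notch1, Notch2 and Notch3, the ligand Dll1 and the modifier Lfng rose in Pax7-GFP cells, by 3.46- to 8.82-fold. Dll3, Dll4, Jag1, Jag2 and Notch4 were not called in either direction. Thus 5 of the 10 genes were called higher and 0 lower, where 7.34% of all genes tested were called higher and 7.15% lower. The median log2 fold change was 0.93 over the 10 genes and 0.024 over all genes. Values on the arrays did not overlap between groups for 8 of the 10 genes, as for 51.9% of all genes tested.

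**Figure D1:**
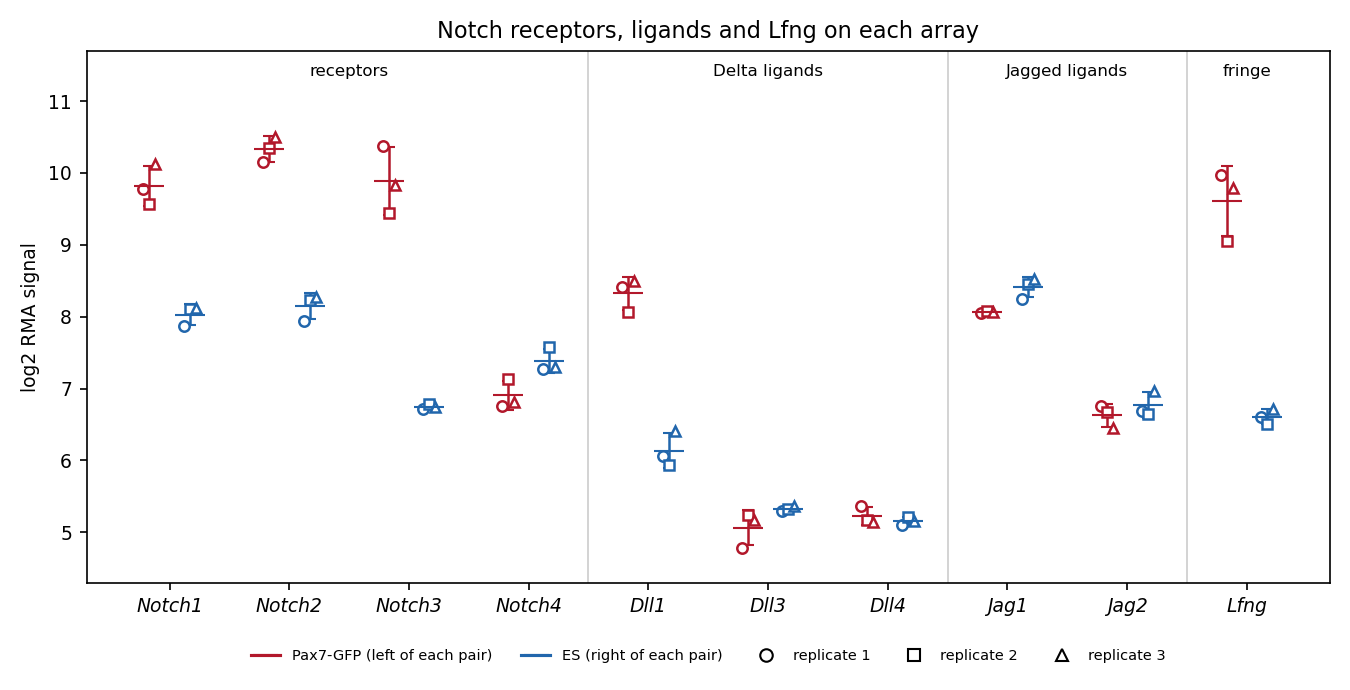
Log2 RMA signal (vertical axis) of each of the 10 genes on the 3 Pax7-GFP arrays (red, left of each pair) and the 3 ES arrays (blue, right). Symbols mark the replicate, horizontal bars the group mean and whiskers the SD. Notch1, Notch2, Notch3, Dll1 and Lfng stand clear of their ES values, while the groups overlap for Dll4 and Jag2. Heights of different genes cannot be compared, since each probe set has its own response.

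Notch1 is a receptor used by muscle progenitors, blood cells and many epithelia. Its probe set, 17383052, gave 9.77, 9.57 and 10.12 on the Pax7-GFP arrays, against 7.87, 8.10 and 8.12 on the ES arrays. Every Pax7-GFP value lay above every ES value, and ES cells already had signals above the array median. Notch1 thus rose by 1.79 on the log2 scale (SE 0.15, 95% interval 1.46 to 2.13, limma adjusted p = 2.38e-05), or 3.46-fold. Notch1 was the only 1 of the 5 risen genes that did not reach 4-fold.

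Notch2, a receptor that works beside Notch1 in many tissues, was measured by probe set 17400813. The values were 10.15, 10.34 and 10.51 in Pax7-GFP cells, against 7.93, 8.23 and 8.28 in ES cells. Every Pax7-GFP value lay above every ES value, and the SDs were 0.18 in Pax7-GFP cells and 0.19 in ES cells, against medians over all genes of 0.14 and 0.084. The log2 fold change was 2.18 (SE 0.13, 95% interval 1.89 to 2.48, limma adjusted p = 3.60e-06), or 4.54-fold.

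Notch3 is a receptor of satellite cells and of the mural cells of vessels. Probe set 17343299 gave 10.38, 9.45 and 9.83 on the Pax7-GFP arrays, against 6.71, 6.78 and 6.74 on the ES arrays. ES values were nearly alike, with an SD of 0.037, while Pax7-GFP values spread with an SD of 0.47. The log2 fold change was 3.14 (SE 0.20, 95% interval 2.67 to 3.61, limma adjusted p = 6.53e-06), or 8.82-fold. Markers of mural cells moved with it in part. Of 12 measured genes in that list 5 were higher (Ndufa4l2, Pdgfrb, Acta2, Tagln and Cspg4), 1 was lower (Cnn1) and 6 were not called. Among those not called, Abcc9 (0.59) and Kcnj8 (0.37) passed the p threshold alone upward and Mcam (-0.60) downward. The other 3 passed neither threshold. Of all genes tested 7.34% were called higher and 7.15% lower. The mean log2 signal of the list lay between 7.42 and 7.66 on Pax7-GFP arrays and between 6.88 and 6.98 on ES arrays. Myh11, the smooth muscle myosin, stood at 6.03 in Pax7-GFP cells and 5.99 in ES cells (limma adjusted p = 0.841), and Rgs5, a pericyte marker, at 5.11 in Pax7-GFP cells and 4.57 in ES cells (limma adjusted p = 0.0569). Cspg4 was not called without Pax7-GFP replicate 1 (0.78), without Pax7-GFP replicate 2 (0.97) or without ES replicate 2 (0.94). The part of mural cells in the Notch3 values was not tested.

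Notch4, a receptor best known from endothelium, was the exception among the receptors. Its values were 6.76, 7.14 and 6.81 in Pax7-GFP cells, against 7.27, 7.58 and 7.30 in ES cells. The groups did not overlap, but the difference was under 2-fold. With a difference of -0.48 (SE 0.13, 95% interval -0.78 to -0.18, limma adjusted p = 0.0175), Notch4 passed the p threshold without reaching 2-fold. At any fold, 41.1% of all genes passed that threshold. Of 15 measured endothelial markers 1 was higher (Cdh5), 1 was lower (Pecam1) and 13 were not called. These counts are near the shares of all genes tested, 7.34% higher and 7.15% lower. Of the 13, 2 passed the p threshold alone upward and 2 downward. The mean log2 signal lay between 5.43 and 5.54 on Pax7-GFP arrays and between 5.58 and 5.59 on ES arrays. Pecam1 stood at 5.97 in Pax7-GFP cells and 8.40 in the undifferentiated ES cells, and Cdh5 at 6.81 and 5.40.

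**Figure D2:**
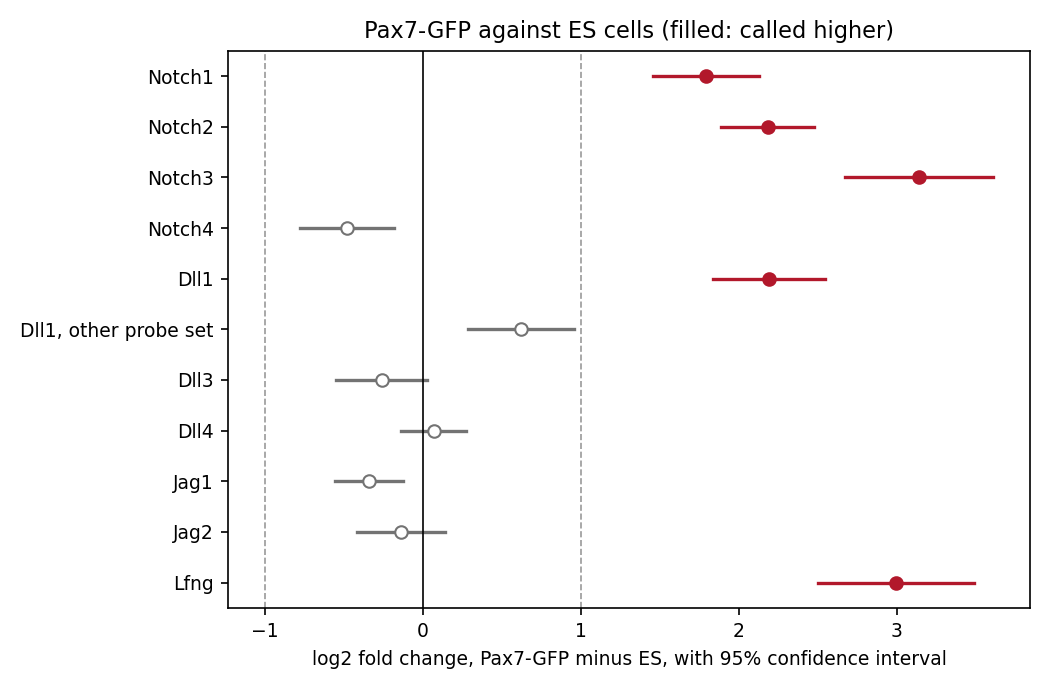
Log2 fold change, Pax7-GFP minus ES (horizontal axis), with its 95% confidence interval for each gene and for the other probe set of Dll1. Filled red points were called higher, open points were not called, and dashed lines mark 2-fold. The intervals of Notch1, Notch2, Notch3, Dll1 and Lfng lie wholly above 1, and all others lie wholly between -1 and 1.

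Among the Delta ligands Dll1 rose and the other two were not called. Dll1 activates Notch on neighbouring cells and is needed to keep muscle progenitors in the mouse embryo. Its brighter probe set, 17341179, gave 8.41, 8.07 and 8.50 on the Pax7-GFP arrays, against 6.06, 5.94 and 6.40 on the ES arrays. The groups were well separated, and the log2 fold change was 2.19 (SE 0.15, 95% interval 1.84 to 2.55, limma adjusted p = 1.01e-05), or 4.57-fold. The dimmer probe set, 17333549, gave 5.65, 5.93 and 6.15 in Pax7-GFP cells, against 5.43, 5.14 and 5.30 in ES cells. It moved the same way without overlap, but by 0.62 (SE 0.14, limma adjusted p = 0.0135 in a fit of all 41345 probe sets), under the 2-fold minimum. The probe sets of Dll1 therefore differ in size of change, and their mean gave 1.41.

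Dll3, which acts inside the same cell on Notch trafficking and is a gene of presomitic mesoderm and neural progenitors, had 4.78, 5.24 and 5.18 in Pax7-GFP cells, against 5.29, 5.32 and 5.37 in ES cells. All 6 values lay below their array's median, and no detection call says whether they exceed background. The log2 fold change was -0.26 (95% interval -0.55 to 0.027, limma adjusted p = 0.141). Dll4, the ligand of sprouting endothelium, had 5.37, 5.17 and 5.15 in Pax7-GFP cells, against 5.10, 5.21 and 5.16 in ES cells. These values overlapped and also lay below the array medians, with a log2 fold change of 0.068 (95% interval -0.14 to 0.28, limma adjusted p = 0.612). Another probe set, 17389855, is annotated to both Gm14207 and Dll4 and was not counted as Dll4. It stood at 5.63 ± 0.26 in Pax7-GFP cells and 5.60 ± 0.26 in ES cells (SD, n = 3 each). Markers of presomitic mesoderm numbered 0 higher and 0 lower among 10 measured, with 3 past the p threshold alone upward and 1 downward. Those of neural progenitors and neurons numbered 2 higher and 5 lower among 14, with 2 more past the p threshold alone downward. Of all genes tested 7.34% were higher and 7.15% lower, so 0 of 10 is near those shares.

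The Jagged ligands differed by less than 2-fold. Jag1, a ligand of many epithelia, vessels and progenitors, had 8.06, 8.09 and 8.06 in Pax7-GFP cells, against 8.25, 8.45 and 8.53 in ES cells. The Pax7-GFP values were almost equal and all lay below the ES values. The log2 fold change of Jag1 was -0.34 (SE 0.093, 95% interval -0.56 to -0.13, limma adjusted p = 0.0180), past the p threshold alone. Jag2 had 6.76, 6.67 and 6.45 in Pax7-GFP cells, against 6.68, 6.64 and 6.97 in ES cells. Its groups overlapped, and the log2 fold change was -0.14 (95% interval -0.42 to 0.14, limma adjusted p = 0.425). For both ligands the interval leaves out a 2-fold difference in either direction.

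Lfng encodes Lunatic fringe, which is also a component of the mouse segmentation clock. Probe set 17444106 gave 9.97, 9.06 and 9.80 on the Pax7-GFP arrays, against 6.60, 6.50 and 6.72 on the ES arrays. Replicate 2 stood apart from the other Pax7-GFP arrays, yet remained well above every ES value. The log2 fold change was 3.00 (SE 0.21, 95% interval 2.50 to 3.49, limma adjusted p = 1.14e-05), or 7.99-fold. The other fringes, named after their values were seen, were not called. Mfng stood at 6.08 ± 0.20 in Pax7-GFP cells and 6.45 ± 0.057 in ES cells, and Rfng at 7.16 ± 0.13 in Pax7-GFP cells and 7.34 ± 0.017 in ES cells (SD, n = 3 each). Their differences were -0.37 (limma adjusted p = 0.0298) for Mfng and -0.18 (limma adjusted p = 0.162) for Rfng.

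The promoters of Lfng, Dll1 and Jag1 are shown as examples of windows that hold a match to a pair of motifs, for a pair of risen genes and a gene that was not called. RefSeq promoter windows (GRCm38.p6, 250 bases before to 50 after a gene start) were found for all 10 genes, with 11 windows in all because Dll1 has alternative starts. The Rbpj core GTGGGAA was searched on both strands, as was the palindromic E-box CAGCTG, of the kind that myogenic factors bind. Capitals mark the matches, which do not overlap each other. The windows are chr5:140607091-140607390 on the plus strand for Lfng, chr17:15376883-15377182 on the minus strand for Dll1 and chr2:137116471-137116770 on the minus strand for Jag1, each printed 5′ to 3′ along the gene.
Lfng: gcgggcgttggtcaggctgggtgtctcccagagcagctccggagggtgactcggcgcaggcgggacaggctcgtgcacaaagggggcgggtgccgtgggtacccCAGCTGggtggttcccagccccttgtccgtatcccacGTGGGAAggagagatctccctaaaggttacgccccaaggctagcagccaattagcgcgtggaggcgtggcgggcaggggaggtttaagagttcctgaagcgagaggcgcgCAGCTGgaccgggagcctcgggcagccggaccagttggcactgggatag
Dll1: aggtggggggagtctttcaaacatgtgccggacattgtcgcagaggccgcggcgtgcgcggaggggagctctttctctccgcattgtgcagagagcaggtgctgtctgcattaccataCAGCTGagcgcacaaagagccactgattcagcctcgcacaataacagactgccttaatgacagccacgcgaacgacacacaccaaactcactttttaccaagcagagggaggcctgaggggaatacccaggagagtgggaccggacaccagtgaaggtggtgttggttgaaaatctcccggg
Jag1: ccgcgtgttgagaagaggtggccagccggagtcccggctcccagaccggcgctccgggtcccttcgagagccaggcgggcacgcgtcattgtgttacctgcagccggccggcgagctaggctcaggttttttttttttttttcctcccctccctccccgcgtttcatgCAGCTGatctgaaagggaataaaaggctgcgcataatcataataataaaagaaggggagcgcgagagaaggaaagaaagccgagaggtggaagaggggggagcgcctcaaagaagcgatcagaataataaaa
GTGGGAA occurred in 1 of the 11 windows, that of Lfng, where it starts at position -109 from the gene start. Of all 32851 promoter windows of this length, 6.38% held it. CAGCTG occurred in the windows of 4 genes, at -146 and 2 in Lfng, -132 in the upstream window of Dll1, -82 in Jag1 and -7 in Dll3, and 16.3% of all windows held it. Lfng and Dll1 rose whereas Jag1 and Dll3 were not called, so the E-box letters stood on both sides. The windows of Notch1, Notch2 and Notch3 held neither motif. A match describes the letters in the window and shows no binding.

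Among the Pax7-GFP arrays the 5 risen genes did not vary alike. Replicate 2 was the lowest of the 3 arrays for Notch1, Notch3, Dll1 and Lfng, and replicate 1 was the lowest for Notch2. Over all 1627 genes called higher, replicate 2 was the lowest for 51.1%, replicate 3 for 27.2% and replicate 1 for 21.7%. Notch3 and Lfng had the widest Pax7-GFP ranges of the 10 genes, 0.93 and 0.91, against ES ranges of 0.073 and 0.22. Without Pax7-GFP replicate 2 the log2 fold changes of Notch3 and Lfng were 3.36 and 3.27, and without Pax7-GFP replicate 1 they were 2.89 and 2.82. Leaving out any of the 6 arrays left Notch1, Notch2, Notch3, Dll1 and Lfng called higher and 0 genes lower.

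**Figure D3:**
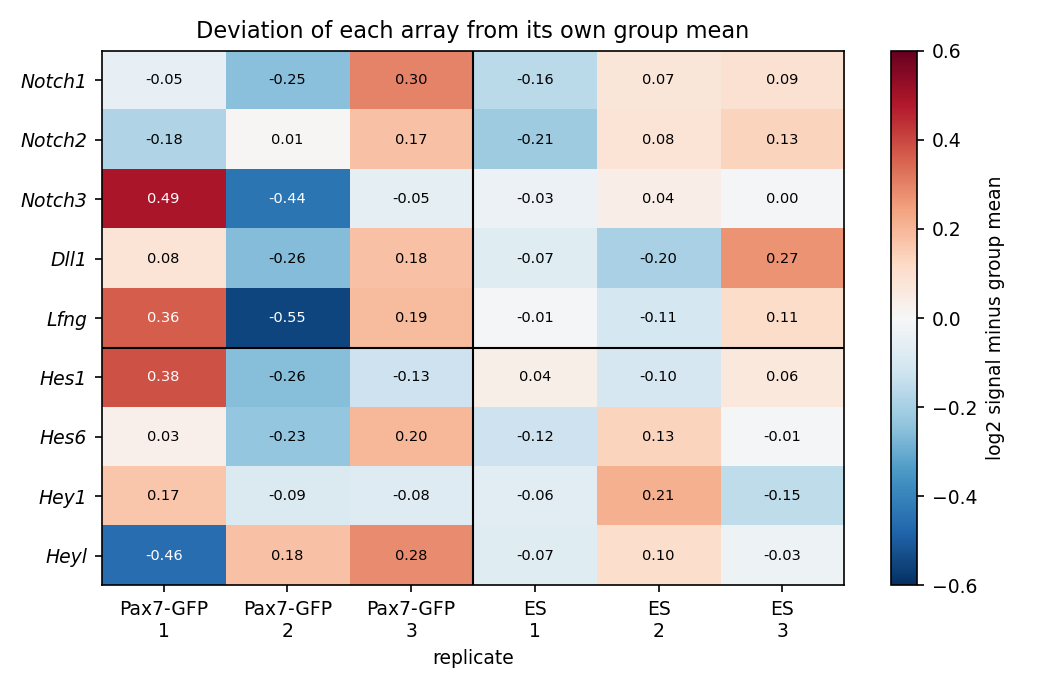
Deviation of each array (columns, by group and replicate) from the mean of its own group, in log2 units, for the 5 risen genes (above the line) and for Hes1, Hes6, Hey1 and Heyl (below it). Red is above and blue below the group mean. Pax7-GFP replicate 2 deviates by -0.55 for Lfng and -0.44 for Notch3, and replicate 1 by 0.38 for Hes1, 0.17 for Hey1 and -0.46 for Heyl.

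By the distance between array profiles after subtracting each gene's own mean over the 6 arrays, the genes most like Notch3 were Dync1i1 (distance 0.19) and Cap2 (0.21). The same pair lay nearest to Lfng, in the other order, with Cap2 at 0.26 and Dync1i1 at 0.27. Notch2 was nearest to Tmem64 (0.098) and Tnc (0.17), Notch1 to Rcbtb2 (0.17) and Mcu (0.18), and Dll1 to Tet3 (0.16) and Irf2 (0.20). With 6 arrays in 2 groups, likeness mostly reflects a similar size of the group difference.

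The rest of the pathway was followed in lists of genes by role, of which 79 of 83 genes were measured beside the 10 described. Of these 16 rose, 4 fell and the remaining 59 were not called, with 22 more genes past the p threshold alone upward and 14 downward. Over all genes tested, 7.34% were called higher and 7.15% lower, which are the shares to set beside each list count below. At any fold, 19.7% of all genes passed the p threshold upward and 21.4% downward. The median log2 fold change was 0.31. Of the 7 lists, those of glycosylation, cleavage and the nuclear complex held 1 higher gene each, and the others from 2 to 5. For lists of 9 to 12 measured genes, 1 is near the share of all genes. Hey1, Heyl and Dlk1 had the 3 highest log2 fold changes, at 4.64, 4.03 and 3.73.

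**Figure D4:**
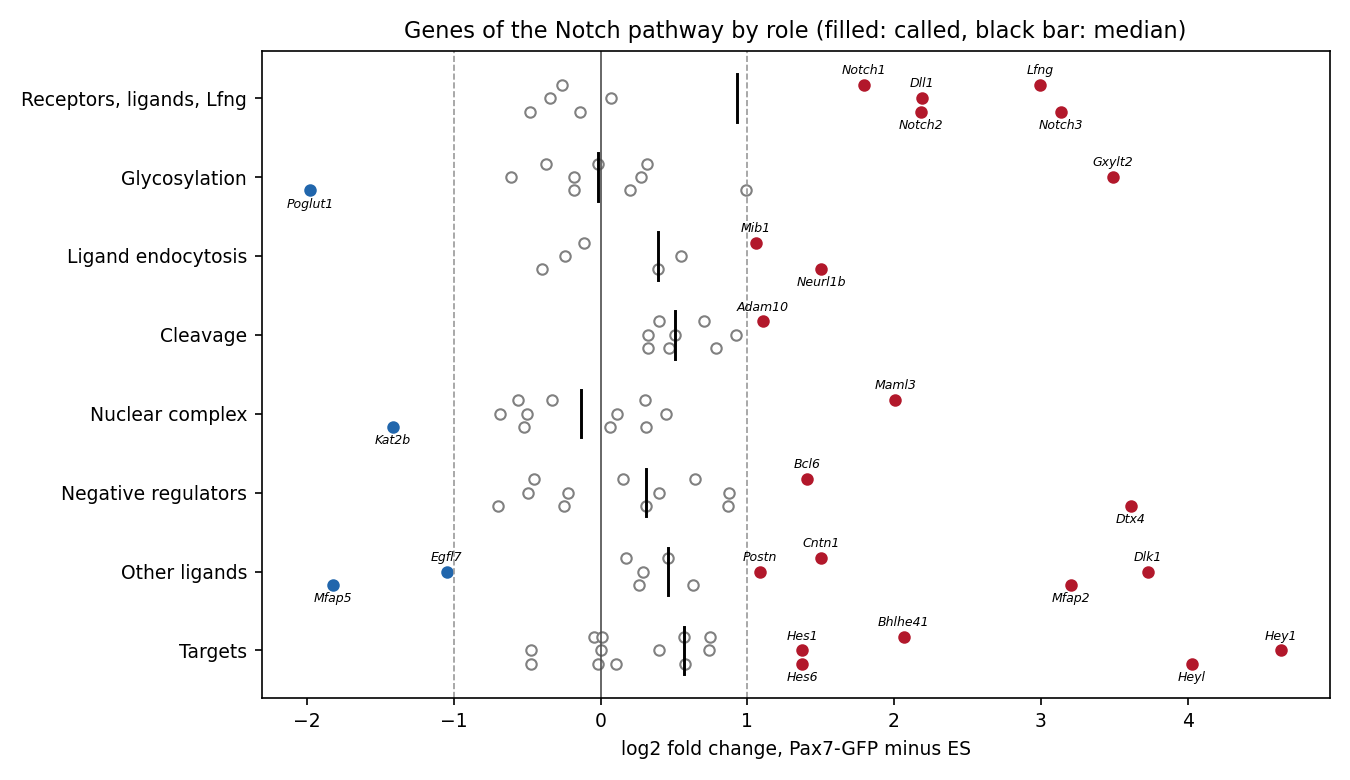
Log2 fold change, Pax7-GFP minus ES (horizontal axis), of each measured gene of the pathway, by role. Filled red points were called higher, filled blue points lower, open points were not called, black bars are list medians and dashed lines mark 2-fold. Every measured cleavage gene lies above 0, and Hey1 and Heyl lie farthest right.

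Among the enzymes that decorate Notch with sugars, 1 of 11 was higher, 1 lower and 9 were not called. These counts are near the shares of all genes tested, 7.34% higher and 7.15% lower. Gxylt2, which adds xylose to a glucose on the receptor, rose to 9.39 ± 0.093 in Pax7-GFP cells, against 5.89 ± 0.063 in ES cells (SD, n = 3 each), that is by 3.49 on the log2 scale (SE 0.086, limma adjusted p = 3.80e-08). Poglut1, which adds that glucose, fell to 8.67 ± 0.30 in Pax7-GFP cells, against 10.65 ± 0.010 in ES cells (SD, n = 3 each), a difference of -1.98 (SE 0.14, limma adjusted p = 1.20e-05). These consecutive enzymes therefore moved in opposite directions. Poglut3 stood at 0.99 and Eogt at -0.61, past the p threshold alone. Poglut3 was called, making 2 higher, without Pax7-GFP replicate 2 (1.15), without ES replicate 2 (1.01) or without ES replicate 3 (1.11).

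In the machinery that lets ligand-bearing cells pull on Notch, 2 of 7 genes were higher and 0 lower. Mib1, the ubiquitin ligase that drives ligand endocytosis, rose by 1.06 (SE 0.11, limma adjusted p = 0.000110), and Neurl1b, another such ligase, by 1.51 (SE 0.26, limma adjusted p = 0.00182). Mib1 stood near the threshold, at 0.99 and not called without Pax7-GFP replicate 3. Neurl1b had 7.90, 6.86 and 6.80 on the Pax7-GFP arrays, so replicate 1 carried much of its spread. Epn1, an adaptor of endocytosis, stood at 0.55 and Neurl1a at 0.39, past the p threshold alone.

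Most genes of the proteolytic step were higher by less than 2-fold. Of 9 measured genes 1 was called higher, 7 passed the p threshold alone upward and 1 passed neither. Thus 8 of 9 passed the p threshold upward, where 19.7% of all genes did. The median log2 fold change was 0.51, with a range of 0.32 to 1.11. Adam10, which makes the first cut after ligand binding, rose to 9.35 ± 0.16 in Pax7-GFP cells, against 8.24 ± 0.090 in ES cells (SD, n = 3 each, log2 fold change 1.11, limma adjusted p = 5.57e-05). Furin, which processes the receptor on its way to the surface, stood at 0.92 and Psen2, a catalytic subunit of gamma-secretase, at 0.79. Furin was called without Pax7-GFP replicate 2 (1.03), making 2 higher.

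In the nuclear complex 1 of 12 measured genes was higher, 1 lower and 10 were not called, with a median of -0.13. These counts are near the shares of all genes tested, 7.34% higher and 7.15% lower. At any fold 4 of the 12 passed the p threshold upward and 6 downward, where 19.7% and 21.4% of all genes did. Maml3, a Mastermind co-activator, had 7.15, 6.62 and 5.89 on the Pax7-GFP arrays, against a mean of 4.54 ± 0.082 in ES cells (SD, n = 3). The 3 Pax7-GFP values differ widely but all exceed the ES level, and Maml3 rose by 2.01 (SE 0.27, limma adjusted p = 0.000428). Kat2b, an acetyltransferase that joins the complex, fell by 1.42 (SE 0.16, limma adjusted p = 0.000132). Snw1 stood at -0.50 and Spen, a co-repressor of Rbpj, at -0.52, past the p threshold alone. Rbpj itself, named after its values were seen, had 10.003 ± 0.36 in Pax7-GFP cells and 10.57 ± 0.0069 in ES cells (SD, n = 3 each), a difference of -0.56 (limma adjusted p = 0.0230), under 2-fold.

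In the list named for negative regulators 2 of 13 measured genes were higher and 0 lower, where 7.34% of all genes were higher. Another 3 passed the p threshold alone upward and 4 downward. Whether each listed gene restrains Notch in these cells was not tested. Dtx4, a Deltex ubiquitin ligase, rose to 9.98 ± 0.17 in Pax7-GFP cells, against 6.37 ± 0.088 in ES cells (SD, n = 3 each), that is by 3.61 (SE 0.11, limma adjusted p = 8.04e-08). Bcl6, a transcriptional repressor, rose by 1.41 (SE 0.17, limma adjusted p = 0.000274). Sel1l stood at 0.88 and Dtx1, a relative of Dtx4, at -0.70, past the p threshold alone and in opposite directions.

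Proteins outside the Delta and Jagged families that have been described as Notch ligands or partners were higher in 4 of 11 and lower in 2. Dlk1, a Delta-like protein without the domain that activates Notch, rose by 3.73 (SE 0.12, limma adjusted p = 1.48e-07). Mfap2, a protein of microfibrils, rose by 3.20 (SE 0.18), Cntn1, a neural adhesion molecule, by 1.50 (SE 0.21) and Postn, a matrix protein, by 1.09 (SE 0.17). Mfap5, the relative of Mfap2, fell by 1.82 (SE 0.13) and Egfl7, an endothelial protein, fell by 1.05 (SE 0.12). For Mfap2, Cntn1, Postn, Mfap5 and Egfl7 limma gave adjusted p-values from 2.57e-06 to 0.000968. Without Pax7-GFP replicate 1 Egfl7 stood at -0.98 and Postn at 0.95, so that 1 gene was lower and 3 were higher, and Postn also stood at 0.96 without ES replicate 1. Ccn3 stood at 0.63, past the p threshold alone, and Thbs2 at 0.46, past neither. Postn and Mfap2 are also made by fibroblasts. Of 10 measured fibroblast markers 6 were higher and 0 lower, where 7.34% of all genes tested were higher and 7.15% lower. The mean log2 signal of these markers lay between 7.92 and 8.40 on Pax7-GFP arrays and between 6.21 and 6.42 on ES arrays. The part of fibroblasts in the Postn and Mfap2 values was not tested.

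The target list held Hes and Hey family genes and genes known as Notch targets in various tissues. Of its 17 genes 5 were higher and 0 lower, where 7.34% of all genes tested were higher and 7.15% lower. The median log2 fold change of the list was 0.57. Whether each listed gene is a Notch target in these cells was not tested. Hey1 had 11.17, 10.92 and 10.93 on the Pax7-GFP arrays, against 6.37 ± 0.19 in ES cells (SD, n = 3). Heyl had 9.50, 10.13 and 10.24 on the Pax7-GFP arrays, against 5.93 ± 0.092 in ES cells (SD, n = 3). Both Hey factors are repressors induced by Notch in muscle progenitors. Among the Pax7-GFP arrays Hey1 was highest on replicate 1, as were Hes1, Bhlhe41, Notch3 and Lfng, whereas Heyl was lowest there. Heyl, Hes6, Notch1, Notch2 and Dll1 were highest on replicate 3. The mean of the fibroblast list was also highest on replicate 1, at 8.40, against 8.04 and 7.92 on replicates 2 and 3. The mural mean was highest there too, at 7.66, whereas the endothelial mean was highest on replicate 2. Whether receptors and targets vary together across arrays was not tested. Hes1, a widely used target, rose by 1.38 (SE 0.16, limma adjusted p = 0.000181), Hes6, which opposes Hes1, by 1.37 (SE 0.13, limma adjusted p = 4.59e-05) and Bhlhe41, a repressor of the clock and of muscle differentiation, by 2.07 (SE 0.18, limma adjusted p = 3.70e-05). Of the 12 genes not called, 4 passed the p threshold alone upward, among them Myc at 0.75 and Nfkb2 at 0.74. Another 2 passed it downward, Ccnd1 at -0.47 and Id4 at -0.48. Not every classical target was called. Hes5, named after its values were seen, stood at 6.31 ± 0.10 in Pax7-GFP cells and 6.31 ± 0.017 in ES cells, and Nrarp, a feedback inhibitor also named after its values were seen, at 6.48 ± 0.31 in Pax7-GFP cells and 6.08 ± 0.21 in ES cells (SD, n = 3 each), with limma adjusted p = 0.971 and 0.0999.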

How the data were processed

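Expression was measured on single-colour arrays hybridised with biotin-labelled cRNA made by a double amplification, per the labels' protocols. The authors deposited log2 RMA signals, 1 per probe set and array, made with RMA (robust multi-array average: background correction, normalization between arrays and summary of probes) in R 2.12.1, per the submitters' processing notes. RMA options, probe set definitions and the genome build are details not given in the sources used here. RMA compresses differences near background, double amplification favours transcript 3′ ends, and no detection calls were given.

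Groups and replicate numbers came from the titles. How cultures were separated is not stated, so p-values reflect only how these samples vary, which may be technical, and the number of arrays limits precision. Of 41345 probe sets 23521 had 1 gene symbol in GEO's platform annotation, 1814 had several and 16010 were unnamed here. Each gene was represented by whichever of its single-symbol probe sets was brightest on average over the 6 arrays, without a filter on dim genes. Pax7-GFP was compared with ES with limma 3.58.1 in R 4.3.3 (lmFit, eBayes, two-sided). On simulated data with the measured means and spreads of 22180 genes, the fit called 96 of 100 genes changed by 1.5 (log2), 100 of 100 changed by 3, and 1 of 21980 unchanged genes.

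The 10 genes, the pathway and marker lists and the tests were chosen with earlier results of these data known. The text names all 10 genes, every called member of the pathway lists, the 2 uncalled members of each pathway list with the lowest p, and the 2 nearest profiles of each called gene. Other names were chosen after their values were seen, as was the CAGCTG search. Nrarp stood in 2 pathway lists. Heyl stood in both the target and the myogenic list, and Hes7 in both the target and the presomitic list. A few listed genes are not reported here. Alternatives were other scalings, a signal floor of 5, a dim-gene filter, averaged or separate probe sets, other fold minimums, a trended prior, weights per array, a block for the replicate number, and leaving out each array.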

Additional observations from a re-analysis of the deposited data

How the results depend on the processing

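The count of 5 of 10 genes higher and 0 lower held after subtracting array medians, quantile normalization, a signal floor and the dim-gene filter. It also held with averaged probe sets, the trended prior, array weights, the limma test against 2-fold, and each array left out. With every probe set tested the count was unchanged too, but each gene was still counted by its brightest probe set. The dimmer Dll1 probe set, not called at 0.62, could not enter that count. Without a minimum fold 2 genes were lower (Notch4 and Jag1), and with a 4-fold minimum 4 were higher, Notch1 dropping out at 1.79. The median of the 10 genes, 0.93, was 0.74 with probe sets averaged and 1.99 over the 8 genes left by the dim-gene filter, which removed Dll3 and Dll4, and it lay between 0.88 and 1.01 without single arrays. Genes called numbered 3212 in the main fit, 4951 of 41345 when every probe set was tested, 9126 without a minimum fold, 1010 at a 4-fold minimum and 1713 in the test against 2-fold. The other pathway genes, 16 higher and 4 lower, numbered 38 and 18 without a minimum fold, 8 and 0 at 4-fold, and 8 and 2 in the test against 2-fold. These shifts follow from the thresholds and units themselves. The dim-gene filter also removed Maml3, Cntn1 and Bhlhe41, leaving 13 other pathway genes higher. Same-numbered arrays did not deviate together (correlations of -0.11, -0.22 and 0.0069 over genes). Whether the numbers pair samples cannot be settled from so few arrays. With the replicate block 5 genes were higher and 0 lower, with the median again at 0.93. The number of arrays and signals near background (Dll3, Dll4) limit what could be detected.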
